A study of Mus musculus with 28 samples.

Results

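The genes described here encode chromatin modifiers and remodellers, measured in yolk-sac macrophages (YSM) and microglia of the mouse from the embryo (E, embryonic day) to adulthood. They were taken by gene symbol: histone deacetylases (Hdac), sirtuins (Sirt), lysine demethylases (Kdm), lysine acetyltransferases (Kat), DNA methyltransferases (Dnmt), Tet dioxygenases, Ezh and Setd methyltransferases, chromobox proteins (Cbx), Smarc subunits, Chd remodellers, Rbbp histone-binding proteins and Hmgb1 to Hmgb3. *Kdm5c*, *Kdm5d* and *Kdm6a* were left out by the rule. Of 91 such genes paired with a probe here, 82 had a probe detected above background (detection p under 0.01) on at least 3 arrays, of 10630 genes in all that met the same filter. The 9 without such a probe were *Dnmt3a*, *Dnmt3l*, *Ezh1*, *Hmgb1*, *Hmgb3*, *Kdm4a*, *Kdm4d*, *Smarcd1* and *Tet3*. One of the 82, *Smarca5-ps*, is a pseudogene that meets the symbol rule.

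All samples came from untreated mice of the strain given in the labels as C56BL/6. Column headers of the microglial arrays carry WT (wild type), and those of the YSM arrays name no genotype. YSM were sorted from the E10.5 yolk sac (4 arrays), and microglia from the brain at 5 embryonic stages 2 days apart from E10.5 to E18.5, in newborns (P0) and at 2 months (adult), with 3 arrays each after 3 adult columns that repeated others value for value had been counted once. Each sample was RNA of cells sorted as CD45low CD11b+ F4/80+ CD64+ Ly6C-, pooled from several embryos or animals of both sexes, so that a value is an average over animals and a p-value measures the spread between pools. Brains of adults went through a Percoll gradient and those of newborns and adults through a longer collagenase digestion, so stage and preparation cannot be told apart after birth. The level of array background cannot be told apart from tissue between YSM and brain, where it was 63.91 to 73.41 and 108.4 to 154.6 intensity units respectively.

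Eukaryotic DNA is wrapped around histones, and the enzymes in these families write, erase or read methyl and acetyl groups on histones, methylate or oxidise cytosines, or use ATP to slide and evict nucleosomes. Most work in multi-subunit complexes, such as Polycomb repressive complexes 1 and 2 (PRC1, PRC2), the SWI/SNF (BAF) complex and the nucleosome remodelling and deacetylase complex (NuRD). In macrophages such complexes act with lineage transcription factors at enhancers, and some members, for example the maintenance methyltransferase DNMT1, also serve every cell that copies its DNA.

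Between 71 and 81 of the 82 genes were detected on a single array, and 13224 to 17937 of 45281 probes. A level below is a log2 intensity after background correction and quantile normalization. A change is the later group minus the earlier one, with its standard error, from 1 linear model over the 25 arrays, and a gene "rose" or "fell" where the p-value of limma, adjusted by Benjamini-Hochberg over the 10630 genes, was under 0.05. In bulk RNA, fewer cells of a kind and less RNA per cell cannot be told apart. Of 12 genes listed as markers of microglia and macrophages 10 were measured, and none was below background on every array of any group.

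The chromatin genes as a class moved about as often as other genes, and single members moved a great deal. Across the 8 groups 75 of the 82 genes differed (91.5%, moderated F test), where 91% of all genes did. The 7 that did not pass were *Cbx2*, *Chd1*, *Kdm2b*, *Setd2*, *Sirt6*, *Smarca5-ps* and *Smarcal1*. The distance between the highest and the lowest group mean had a median of 1.14 log2 units for the 82 genes and 1.36 for all genes. Of the 75, 18 had their highest mean in YSM, 14 at E10.5, 11 at E18.5 and 18 in adults, with 3, 6, 3 and 2 at E12.5, E14.5, E16.5 and P0. Those at E18.5 made up 14.7% of the 75, and 6.36% of all 9670 genes that differed had their highest mean there. They were *Kat2b*, *Kat6a*, *Kdm2a*, *Kdm4b*, *Kdm5a*, *Kdm5b*, *Hdac5*, *Chd3*, *Chd5*, *Smarcc2* and *Smarcd3*. Of these only *Kat6a* was called against E16.5, and none was called against P0. Some margins were small, as for *Smarcc2* (9.73, against 9.72 at P0) and *Kdm4b* (11.26, against 11.23 in adults). *Chd5*, a remodeller known from neurons, was not well above background on any array of YSM, E10.5, E12.5 or adult. Neuronal transcripts (7 genes measured of 10) summed to 11.74 to 13.57 log2 units at E18.5, 9.19 to 9.43 in YSM and 8.29 to 8.49 in adults. The sums at E14.5 (11.52 to 12.4) and P0 (11.81 to 12.66) overlapped those of E18.5, and E16.5 read 11.33 to 11.37. The part of these transcripts in the E18.5 peak was not tested.

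**Figure D1:**
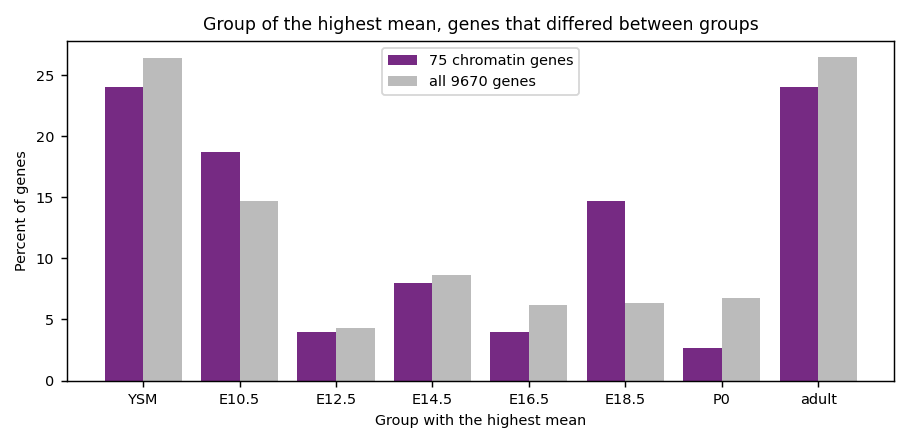
Percent of genes (y axis) whose highest group mean fell in each group (x axis), for the 75 chromatin genes (purple) and all 9670 genes (grey) that differed between groups. Both sets peaked most often in YSM and adults, and E18.5 held 14.7% of the chromatin genes against 6.36% of all. A gene counts for its highest mean whatever the margin over other groups.

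**Figure D2:**
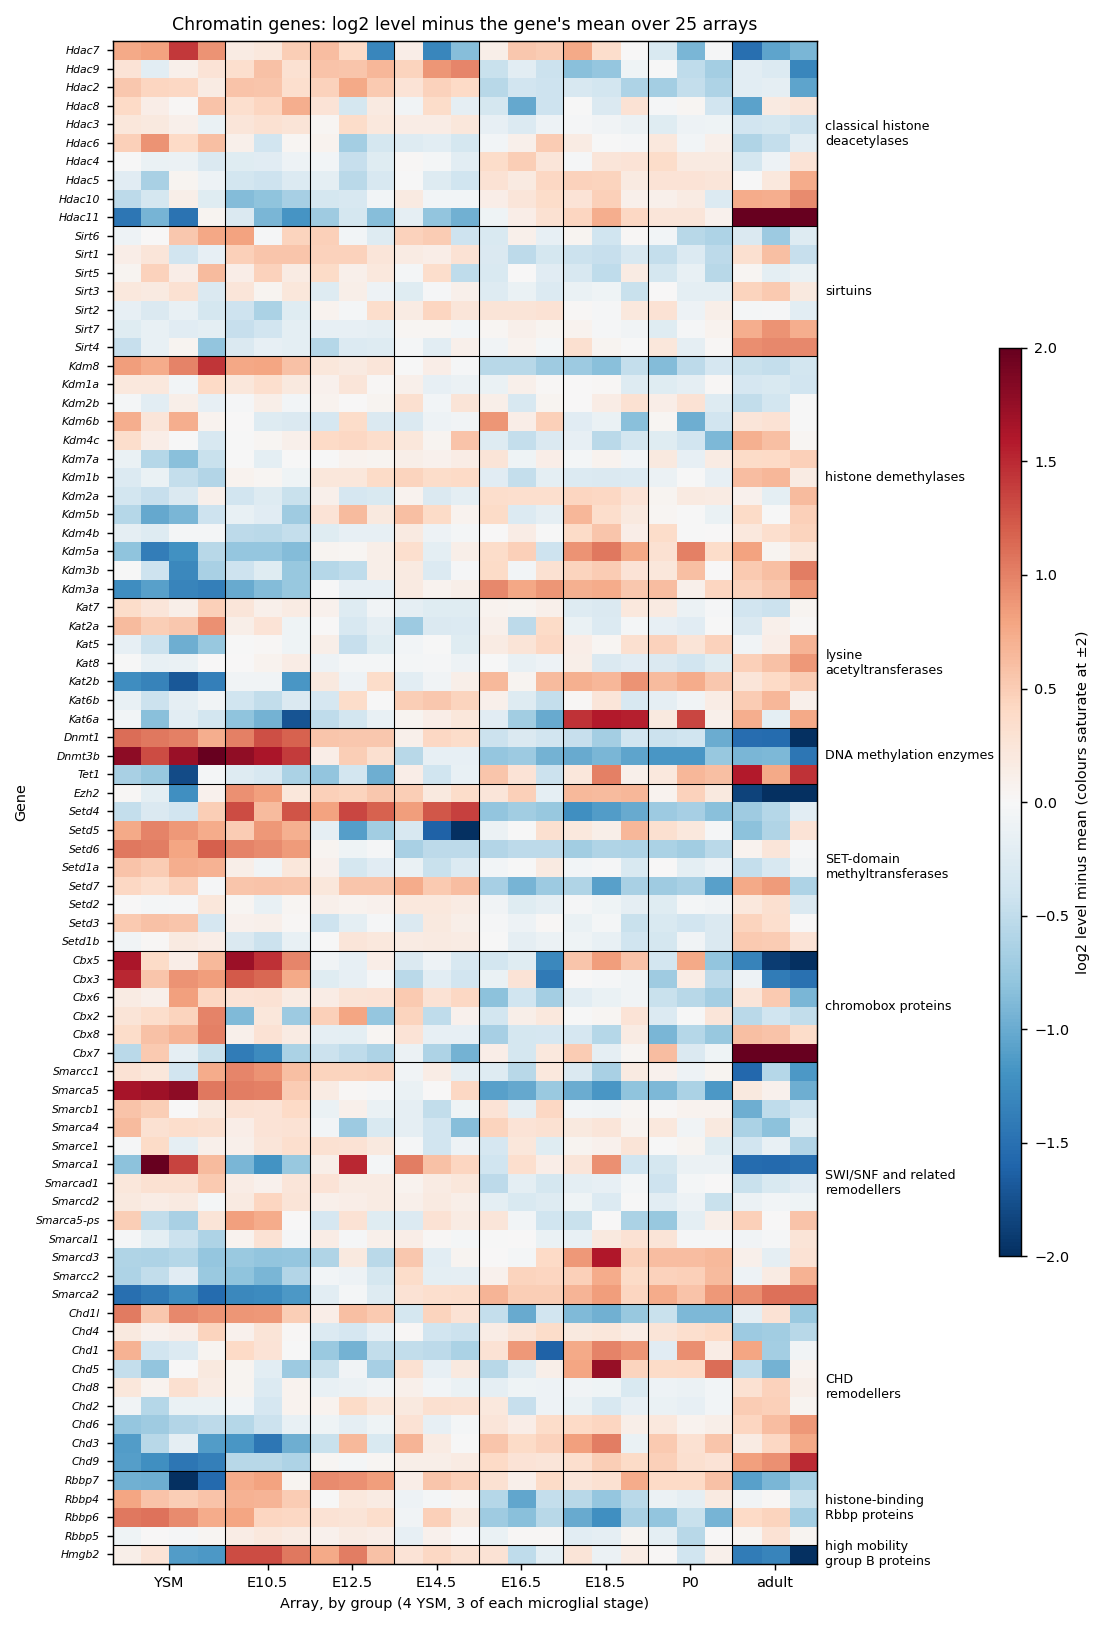
Level of each of the 82 chromatin genes (rows, by family) on each of the 25 arrays (columns, by group), as the log2 level minus that gene's mean over all arrays, with red above and blue below the mean and colours saturating at 2 log2 units. *Dnmt1*, *Dnmt3b*, *Ezh2*, *Cbx5* and *Hmgb2* ran from red at E10.5 to blue in adults, while *Hdac11*, *Cbx7* and *Smarca2* ran the other way.

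From the E10.5 brain to adulthood 59 of the 82 genes changed, 29 upward and 30 downward (72%, against 66.3% of all genes, with 30.6% of all genes higher and 35.6% lower). The median over the 82 was -0.16, and -0.09 over all genes. Between YSM and E10.5 microglia 23 changed, 12 higher and 11 lower in the brain (28%, against 19.6% of all genes). That count varied with single arrays: it was 10 when YSM replicate 3 or 1 of the E10.5 replicates 1 and 2 was left out, 14 without E10.5 replicate 3 and 15 without YSM replicate 4. From E10.5 to E12.5 another 23 changed, 12 up and 11 down (28%, against 30.7%). The count was 15 without E10.5 replicate 2 and 14 without E12.5 replicate 2.

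Consecutive comparisons share the arrays of the stage between them. Later steps alternated between few and many calls. Of these later steps, those with many calls, at E16.5 and after birth, were also those at which signal strength shifted. The ratio of the 75th percentile of intensity to background was 2.64 to 3.484 in the E16.5, E18.5 and P0 groups. In all other groups it was 1.396 to 2.432. The earlier step to E12.5 had many calls as well (30.7% of all genes), with ratios of 1.683 to 1.763 at E10.5 and 1.759 to 1.938 at E12.5. The part of signal strength in the number of calls was not tested. From E12.5 to E14.5 2 genes changed, *Smarca2* upward and *Setd6* downward (2.44%, against 1.38% of all genes, of which 0.875% rose), a count that was 0 without E12.5 replicate 1 and 1 without E12.5 replicate 3, E14.5 replicate 2 or E14.5 replicate 3. From E14.5 to E16.5 8 genes rose and 20 fell (34.1%, against 32.9%), and 18 were left without E14.5 replicate 3. Lower calls made up 24.4% of the 82 at that step and 20% of all genes. From E16.5 to E18.5 only *Kat6a* passed (1.22%, against 2.32% of all genes, of which 1.37% rose), with 2 calls without E12.5 replicate 2, P0 replicate 3 or adult replicate 3, and 3 without E18.5 replicate 3. From E18.5 to P0 limma called 0 of the 82, against 0.0564% of all genes (0.047% higher and 0.00941% lower), 4 of the 82 had an unadjusted p under 0.05, and the Tukey test of the study's methods called 2. After birth 37 changed (45.1%, against 51.1%), of which 25 rose and 12 fell. Of all genes 24.2% rose and 26.9% fell at that step.

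The share of upward calls depended on the scaling, and the majority turned from upward to downward among the 82 at E12.5 and from downward to upward over all genes after birth. With arrays scaled to their 75th percentile the median of all genes moved from -0.01 to -0.18 at E12.5, from -0.08 to -0.29 at E16.5, from -0.03 to 0.11 between P0 and adult, and from -0.09 to -0.38 between E10.5 and adult. Upward calls then made up 28.6% in place of 52.2% of the calls among the 82 at E12.5, 10.7% in place of 28.6% at E16.5, 72.5% in place of 67.6% after birth, and 35.8% in place of 49.2% over the whole span. Over all genes these shares were 25.2% in place of 47.1%, 20.6% in place of 39.3%, 58.3% in place of 47.3% and 34.5% in place of 46.2%. Sizes of single changes depended on the processing too: of 173 called changes of members, 46 moved by over 1.5 times without background correction, 44 on the normalized table, 38 with the mean of kept probes and 37 under 75th percentile scaling.

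**Figure D3:**
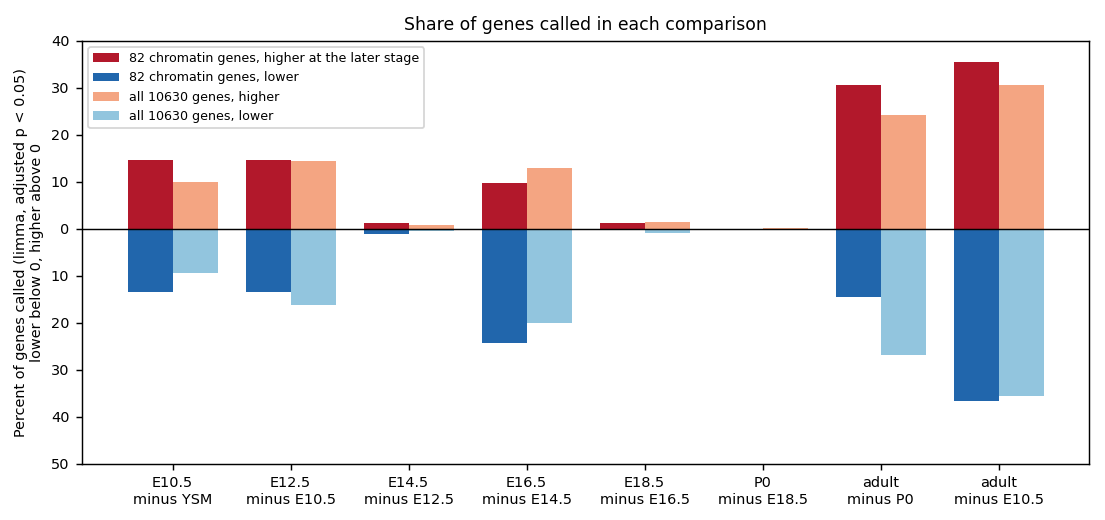
Percent of genes called in each comparison (x axis), higher at the later stage above 0 and lower below 0, for the 82 chromatin genes (dark red and dark blue) and for all 10630 genes (light red and light blue). The chromatin bars lie close to those of all genes in most comparisons, and after birth upward calls (30.5%) exceed downward calls (14.6%).

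Promoter sequence is shown for the genes with 1 start site in the RefSeq table (GRCm38.p6) whose group means spanned the most (means below background included), 3 with the lowest mean in adults (*Dnmt3b*, *Hmgb2*, *Ezh2*) and 3 with the highest (*Hdac11*, *Cbx7*, *Smarca2*), since these carry the opposite trends described below. Each run is the 250 bases before the start, read 5′ to 3′ along the gene. Capitals mark a CCAAT word or a CHR word (TTTGAA or TTCGAA, the element bound by cell-cycle repressor complexes), on either strand. They lie at chr2:153649199-153649448 (plus strand), chr8:57511593-57511842 (plus strand), chr6:47595031-47595280 (minus strand), chr6:91156565-91156814 (plus strand), chr15:79932647-79932896 (minus strand) and chr19:26604910-26605159 (plus strand).
Dnmt3b: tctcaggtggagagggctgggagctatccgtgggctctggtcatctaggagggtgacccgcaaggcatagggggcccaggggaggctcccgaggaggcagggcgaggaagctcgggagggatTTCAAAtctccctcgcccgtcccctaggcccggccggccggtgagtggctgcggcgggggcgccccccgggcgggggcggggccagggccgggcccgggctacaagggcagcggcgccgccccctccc
Hmgb2: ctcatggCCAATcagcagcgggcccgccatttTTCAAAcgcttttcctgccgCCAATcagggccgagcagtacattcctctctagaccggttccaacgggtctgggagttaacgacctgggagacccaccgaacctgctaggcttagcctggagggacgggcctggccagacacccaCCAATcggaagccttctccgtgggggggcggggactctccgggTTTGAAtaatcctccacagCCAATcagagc
Ezh2: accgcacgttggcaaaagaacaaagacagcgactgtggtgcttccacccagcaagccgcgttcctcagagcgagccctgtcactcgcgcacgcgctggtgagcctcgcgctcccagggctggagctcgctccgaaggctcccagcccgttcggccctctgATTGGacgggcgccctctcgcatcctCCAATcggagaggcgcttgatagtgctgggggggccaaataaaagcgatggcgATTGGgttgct
Hdac11: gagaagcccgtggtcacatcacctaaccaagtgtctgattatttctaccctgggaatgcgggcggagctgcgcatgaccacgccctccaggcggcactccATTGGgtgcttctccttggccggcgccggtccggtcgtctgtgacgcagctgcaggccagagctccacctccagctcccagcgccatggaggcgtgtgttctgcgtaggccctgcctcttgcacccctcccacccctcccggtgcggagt
Cbx7: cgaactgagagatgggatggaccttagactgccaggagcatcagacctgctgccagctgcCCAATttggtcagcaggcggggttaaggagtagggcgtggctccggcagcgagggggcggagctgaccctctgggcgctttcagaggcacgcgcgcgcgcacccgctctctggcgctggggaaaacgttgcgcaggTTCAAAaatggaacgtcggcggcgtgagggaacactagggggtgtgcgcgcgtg
Smarca2: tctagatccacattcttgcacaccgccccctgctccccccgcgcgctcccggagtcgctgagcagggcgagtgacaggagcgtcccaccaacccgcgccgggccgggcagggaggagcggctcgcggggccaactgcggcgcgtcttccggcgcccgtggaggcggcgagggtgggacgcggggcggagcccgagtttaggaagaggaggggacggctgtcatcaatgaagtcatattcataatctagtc
In *Hmgb2* 4 CCAAT words and 2 CHR words stood in the 250 bases, in *Ezh2* 3 CCAAT words, in *Cbx7* 1 of each, in *Dnmt3b* 1 CHR word, in *Hdac11* 1 CCAAT word and in *Smarca2* neither. Words of this length are common: of 32544 windows of 300 bases 37.4% held CCAAT and 19.1% a CHR word. An E2F word (TTTCCCGC, TTTCGCGC, TTTGGCGC or TTTGCCGC, either strand) was in 2.28% of windows. By gene, 5 of the 67 members with a window held one (7.46%, against 2.63% of 26742 genes, which were not limited to those detected here). An ETS word (CCGGAAGT) was searched too and was in 8.96% of these members and 4.35% of genes. For CCAAT the shares were 47.8% and 41%, and for CHR words 20.9% and 21.5%. Among the 5 with an E2F word were *Ezh2*, *Dnmt1* and *Cbx3*, of 18 differing members with a window and their lowest mean in adults. *Sirt4* was the 1 of 14 with their highest mean there. A matching word describes the letters and not a bound site.

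All 3 measured DNA methylation enzymes differed between E10.5 and adult microglia, where both methyltransferases fell and the dioxygenase *Tet1* rose. DNMT1 copies methylation onto the new strand at replication, DNMT3B adds it de novo, and TET1 oxidises methylcytosine. *Dnmt1* stood at 12.13, 12.06, 12.01 and 11.73 in YSM, 12.02, 12.29 and 12.19 at E10.5, and 11.56, 11.54 and 11.54 at E12.5. It was at 11.11, 11.42 and 11.38 at E14.5, 10.58, 10.72 and 10.63 at E16.5, 10.54, 10.32 and 10.62 at E18.5, 10.58, 10.60 and 10.02 at P0, and 9.48, 9.46 and 8.60 in adults. Levels in adults lay below those of every other group, and those of YSM and E10.5 overlapped. Between E10.5 and adult *Dnmt1* fell by 2.98 ± 0.19 (7.91-fold, adjusted p = 2.80e-11). It fell by 0.62 ± 0.19 (adjusted p = 0.0198) at E12.5, fell by 0.66 ± 0.19 (adjusted p = 0.0135) at E16.5 and fell by 1.22 ± 0.19 (adjusted p = 2.82e-05) after birth. Over the whole span all 14 measured proliferation genes fell too (median -4.57), and their part in the fall of *Dnmt1* was not tested. The E12.5 call was lost without E10.5 replicate 2, or E12.5 replicate 2 or 3 (adjusted p from 0.0502 to 0.0773) and the E16.5 call without E14.5 replicate 2 or 3 (adjusted p from 0.0501 to 0.0551).

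*Dnmt3b* took most of its fall in the embryo. It stood at 12.04, 11.56, 11.98 and 12.31 in YSM, 12.03, 11.89 and 11.65 at E10.5, 10.38, 10.75 and 10.57 at E12.5, and 9.70, 10.08 and 10.08 at E14.5. From E16.5 on the arrays read 9.47, 9.53 and 9.31 at E16.5, 9.24, 9.33 and 9.20 at E18.5, 9.09, 9.09 and 9.50 at P0, and 9.33, 9.35 and 8.81 in adults. Every array after E10.5 lay below every array of YSM and E10.5, while the levels at E16.5, E18.5, P0 and adult overlapped. The gene fell by 1.29 ± 0.18 (2.45-fold, adjusted p = 3.21e-05) at E12.5, and a second probe fell there as well. It fell by 0.52 ± 0.18 (adjusted p = 0.0348) at E16.5, a call lost without E14.5 replicate 2 or 3, or E16.5 replicate 1, 2 or 3 (adjusted p from 0.0522 to 0.119). After birth its change was -0.06 ± 0.18 (adjusted p = 0.811), beside the fall of *Dnmt1* at that step. Over the whole span *Dnmt3b* fell by 2.69 ± 0.18 (6.46-fold, adjusted p = 5.89e-11).

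*Tet1* was at 6.72, 6.61, 5.59 and 7.34 in YSM, 7.11, 7.06 and 6.74 at E10.5, 6.58, 7.0 and 6.40 at E12.5, and 7.50, 6.98 and 7.22 at E14.5, then at 7.92, 7.65 and 6.95 at E16.5, 7.60, 8.38 and 7.47 at E18.5, 7.58, 8.04 and 7.97 at P0, and 8.96, 8.13 and 8.82 in adults. Successive stages overlapped up to P0, and the adult arrays lay above those of P0 by a narrow margin. It rose by 1.67 ± 0.35 (3.18-fold, adjusted p = 0.000255) between E10.5 and adult, and no consecutive step passed the test. Of 14 listed partners of DNA methylation 11 were measured. Of these 3 rose and 5 fell over the span, where 30.6% and 35.6% of all genes did. *Uhrf1*, which brings DNMT1 to newly copied DNA, fell by 5.61 ± 0.14 (adjusted p = 1.22e-17), and *Tdg*, the glycosylase that removes oxidised methylcytosine, fell by 1.62 ± 0.24 (adjusted p = 5.09e-06). *Gadd45g*, a stress-induced gene linked to demethylation, rose by 3.43 ± 0.48 (adjusted p = 2.58e-06).

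**Figure D4:**
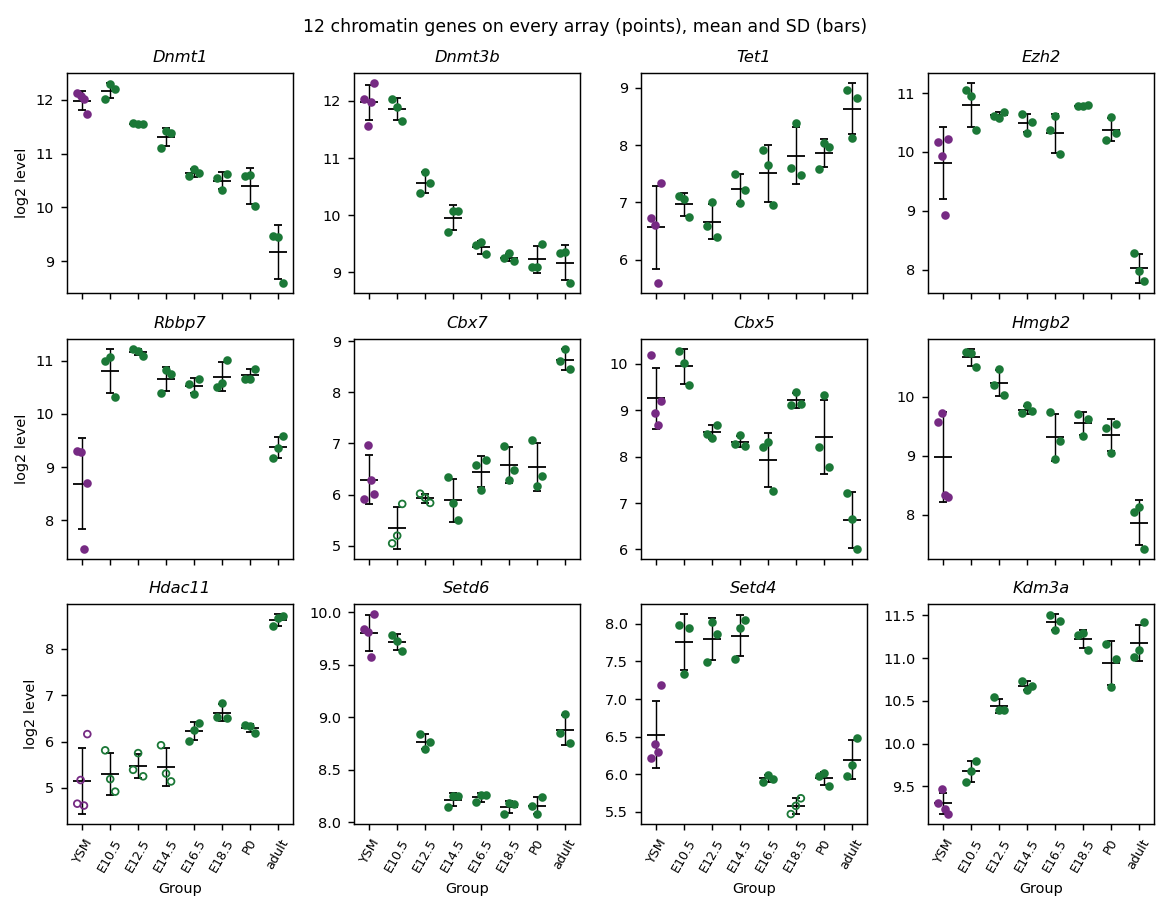
Level of 12 chromatin genes on every array (points; y axis, log2 intensity; x axis, group), with the group mean and SD (bars); purple marks YSM, green microglia, and open points mark groups in which the probe was not well above background on any array. *Dnmt3b* had dropped by E12.5, *Ezh2* and *Rbbp7* were lower in adults than on any array from E10.5 to P0, and *Hdac11* and *Cbx7* were highest in adults.

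The PRC2 genes *Ezh2* and *Rbbp7* stood higher in E10.5 microglia than in YSM and fell after birth. EZH2 is the methyltransferase that places the repressive mark on lysine 27 of histone H3, and RBBP4 and RBBP7 are histone-binding subunits that PRC2 shares with NuRD and other complexes. *Ezh2* was at 10.17, 9.94, 8.92 and 10.22 in YSM, 11.06, 10.96 and 10.37 at E10.5, 10.61, 10.58 and 10.68 at E12.5, and 10.64, 10.33 and 10.51 at E14.5. It stood at 10.38, 10.61 and 9.96 at E16.5, 10.79, 10.78 and 10.80 at E18.5, 10.21, 10.60 and 10.33 at P0, and 8.29, 7.97 and 7.80 in adults. Adult arrays lay more than a log2 unit below every microglial array of the embryo and the newborn. It fell by 2.36 ± 0.26 (5.12-fold, adjusted p = 2.65e-07) after birth, when its second probe fell too. No step between E10.5 and P0 passed on the probe in use, whereas the second probe fell by 0.66 at E12.5 and by 0.92 at E14.5. From YSM to the brain *Ezh2* rose by 0.99 ± 0.24 (adjusted p = 0.00764), but its second probe read -0.10 there, and averaging both probes ended the call (adjusted p = 0.0588).

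*Rbbp7* showed the largest rise between YSM and E10.5 microglia among the 82 genes. It averaged 10.80 ± 0.42 (SD, n = 3) at E10.5 and was at 9.30, 9.28, 7.47 and 8.71 in YSM, 11.21, 11.18 and 11.09 at E12.5, 10.66, 10.66 and 10.85 at P0, and 9.18, 9.35 and 9.58 in adults. All YSM arrays lay below all E10.5 arrays, and the adult arrays overlapped the YSM range. It rose by 2.11 ± 0.30 (4.3-fold, adjusted p = 0.000152) in the brain against YSM, where 3 of its 4 probes rose, and fell by 1.35 ± 0.32 (2.55-fold, adjusted p = 0.00162) after birth. At the first step 6 of 7 endoderm and epithelial genes were lower in the brain, and their part in the rise was not tested. *Rbbp4* was at 9.21, 8.98, 8.91 and 8.99 in YSM, 9.11, 9.10 and 8.92 at E10.5, 8.41, 8.62 and 8.58 at E12.5, and 8.31, 8.38 and 8.46 at E14.5, and at 7.84, 7.38 and 7.94 at E16.5, 7.86, 7.65 and 7.87 at E18.5, 8.30, 8.23 and 8.59 at P0, and 8.35, 8.44 and 7.97 in adults. Its lowest arrays were those of E16.5 and E18.5, with no overlap with E14.5. It fell by 0.66 ± 0.15 (adjusted p = 0.00246) at E16.5 and fell by 0.79 ± 0.15 (adjusted p = 9.00e-05) over the whole span, the latter on 2 of 3 probes (-2.50 to -0.03). *Rbbp6*, a ubiquitin ligase that binds the retinoblastoma protein, followed a like course and fell by 0.91 ± 0.23 (adjusted p = 0.00616) at E16.5. Its rise after birth, 0.78 ± 0.23 (adjusted p = 0.00875), was lost without adult replicate 1 or 2 (adjusted p from 0.0577 to 0.0619). Of the PRC2 partners outside the symbol rule, *Suz12*, a core subunit, rose by 0.55 ± 0.10 (adjusted p = 0.000925) in the brain against YSM and fell by 1.19 ± 0.11 (adjusted p = 3.58e-09) from E10.5 to adult.

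Among PRC1 and heterochromatin readers *Cbx7* and *Cbx5* moved in opposite directions. CBX7 and CBX8 are the PRC1 subunits that read methylated lysine 27, whereas CBX5 (HP1 alpha) and CBX3 (HP1 gamma) read methylated lysine 9. *Cbx7* was at 5.91, 6.97, 6.28 and 6.01 in YSM, 5.05, 5.20 and 5.82 at E10.5, 6.02, 5.94 and 5.84 at E12.5, and 6.34, 5.83 and 5.51 at E14.5. It was at 6.58, 6.10 and 6.67 at E16.5, 6.96, 6.28 and 6.49 at E18.5, 7.07, 6.17 and 6.37 at P0, and 8.61, 8.85 and 8.46 in adults. Adults stood above every other array, and at E10.5 and E12.5 the probe was not well above background on any array. Adult microglia were thus at least 4.89-fold above E10.5 (adjusted p = 2.97e-09), where the floor is the weakest signal well above background. Against P0 *Cbx7* rose by 2.10 ± 0.29 (4.29-fold, adjusted p = 4.87e-06), and *Cbx8* rose by 1.26 ± 0.18 (adjusted p = 8.32e-06). No change from YSM to E10.5 is given for *Cbx7*, since its probe was well above background on 2 of 4 YSM arrays and on none at E10.5.

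*Cbx5* was at 10.19, 8.94, 8.69 and 9.21 in YSM, 10.28, 10.03 and 9.54 at E10.5, 8.49, 8.40 and 8.69 at E12.5, and 8.27, 8.46 and 8.24 at E14.5. Later arrays read 8.20, 8.32 and 7.27 at E16.5, 9.11, 9.40 and 9.13 at E18.5, 8.20, 9.32 and 7.78 at P0, and 7.22, 6.66 and 6.02 in adults. Adult arrays were below all others, and the P0 arrays were wide apart. It fell by 1.42 ± 0.39 (2.68-fold, adjusted p = 0.00845) at E12.5 and fell by 1.80 ± 0.39 (3.48-fold, adjusted p = 0.000636) after birth. *Cbx3* was at 10.83, 10.76 and 10.37 at E10.5, 9.37, 9.45 and 9.59 at E12.5, 9.47, 9.88 and 8.20 at E16.5, 8.90, 9.76 and 9.08 at P0, and 9.51, 8.21 and 8.11 in adults, and 2 of the 3 adult arrays stood within the embryonic range. Between YSM and E10.5 its 3 probes disagreed, from -1.13 to 1.27, and the one in use was not called. Over the whole span *Cbx5* fell by 3.32 ± 0.39 (adjusted p = 1.87e-07) and *Cbx3* fell by 2.04 ± 0.37 (adjusted p = 5.06e-05), the latter on all 3 of its probes. The fall of *Cbx3* at E12.5, -1.18 ± 0.37 (adjusted p = 0.0185), was lost without E10.5 replicate 1 or 2, or E12.5 replicate 1 (adjusted p from 0.052 to 0.0657). *Cbx6*, a PRC1 reader, fell by 1.03 ± 0.24 (adjusted p = 0.00361) at E16.5.

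Of 19 measured Polycomb partners 5 rose and 4 fell over the span, where 30.6% and 35.6% of all genes did. *Bmi1*, a PRC1 core gene, rose by 1.68 ± 0.27 (adjusted p = 0.000442) in E10.5 microglia against YSM and rose by 1.46 ± 0.29 (adjusted p = 0.000179) more by adulthood, *Ring1*, the E3 ligase of PRC1, rose by 1.38 ± 0.17 (adjusted p = 4.18e-07), and *Phc3*, a PRC1 scaffold, rose by 1.64 ± 0.19 (adjusted p = 1.24e-07).

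The remaining SET-domain methyltransferases changed in blocks of stages. SETD4 and SETD6 are lysine methyltransferases of histone and other substrates, SETD7 methylates lysine 4 of histone H3 and non-histone proteins, and SETD5 is a SET-domain protein of debated activity. *Setd6* was at 9.84, 9.81, 9.57 and 9.98 in YSM, 9.78, 9.73 and 9.63 at E10.5, 8.84, 8.70 and 8.76 at E12.5, and 8.14, 8.25 and 8.25 at E14.5. It stood at 8.19, 8.26 and 8.26 at E16.5, 8.08, 8.18 and 8.17 at E18.5, 8.15, 8.08 and 8.24 at P0, and 8.85, 9.03 and 8.75 in adults. YSM and E10.5 arrays were highest, those from E14.5 to P0 lowest, and those of E12.5 and adults lay between, with no overlap among these 3 levels. It fell by 0.95 ± 0.10 (1.93-fold, adjusted p = 2.08e-06) at E12.5, fell by 0.55 ± 0.10 (adjusted p = 0.00804) at E14.5 and rose by 0.72 ± 0.10 (1.64-fold, adjusted p = 9.26e-06) after birth, and its second probe gave the same calls at E12.5 and after birth. The E14.5 call did not hold without E12.5 replicate 1 (adjusted p = 0.0593).

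*Setd4* was at 6.22, 6.40, 6.30 and 7.18 in YSM, 7.99, 7.33 and 7.95 at E10.5, 7.49, 8.03 and 7.87 at E12.5, and 7.53, 7.94 and 8.05 at E14.5, and at 5.90, 5.99 and 5.94 at E16.5, 5.47, 5.58 and 5.68 at E18.5, 5.97, 6.02 and 5.85 at P0, and 5.98, 6.12 and 6.48 in adults. All arrays from E10.5 to E14.5 were above all others. The gene was not well above background on any array at E18.5, and on only 1 of 3 in adults was it so. It rose by 1.23 ± 0.21 (2.35-fold, adjusted p = 0.000551) in the brain against YSM and fell by 1.90 ± 0.22 (3.73-fold, adjusted p = 3.14e-05) at E16.5. A second probe of this gene read -0.45 and 0.01 at these steps and was not called at either, so the pattern belongs to 1 of its 2 probes.

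*Setd5* was at 8.41, 8.64, 8.51 and 8.38 in YSM, 8.16, 8.51 and 8.35 at E10.5, 7.47, 6.55 and 6.95 at E12.5, and 7.32, 6.03 and 5.54 at E14.5. It was at 7.53, 7.64 and 7.96 at E16.5, 7.85, 7.76 and 8.31 at E18.5, 7.97, 7.86 and 7.62 at P0, and 6.83, 7.04 and 7.92 in adults. The arrays of E12.5 and E14.5 lay below all those of YSM, E10.5, E16.5, E18.5 and P0, 2 of the 3 adult arrays lay among them, and those of E14.5 were far apart. *Setd5* fell by 1.35 ± 0.33 (adjusted p = 0.00456) at E12.5 and rose by 1.41 ± 0.33 (adjusted p = 0.00376) at E16.5. At E14.5 its probe was well above background on only 1 of 3 arrays. *Setd7* fell by 1.40 ± 0.26 (adjusted p = 0.000732) at E16.5 and rose by 1.14 ± 0.26 (adjusted p = 0.0011) after birth. The later of these 2 calls was lost when its 3 probes were averaged (adjusted p = 0.265). *Setd1b*, of the SET1 complexes that methylate lysine 4 of histone H3, rose by 0.67 ± 0.12 (adjusted p = 7.66e-05) after birth. Outside the symbol rule, 23 of 27 listed histone methyltransferases and partners were measured. Of these 7 rose and 11 fell over the span, where 30.6% and 35.6% of all genes did. All 5 measured Kmt2 genes, which methylate lysine 4 of histone H3, or for *Kmt2e* are related to those that do, were among the 7. *Kmt2c* rose by 1.42 ± 0.18 (adjusted p = 4.99e-07) and *Kmt2a* rose by 1.23 ± 0.16 (adjusted p = 1.20e-06). *Smyd2* fell by 2.73 ± 0.13 (adjusted p = 3.96e-13), *Nsd2*, which methylates lysine 36, fell by 2.50 ± 0.16 (adjusted p = 1.89e-11), and *Kmt5a*, the methyltransferase of lysine 20 of histone H4, fell by 2.18 ± 0.17 (adjusted p = 5.65e-10).

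Within SWI/SNF the genes of the 2 alternative ATPases, and those of the 2 scaffold subunits, moved in opposite directions between E10.5 and adult. SMARCA2 (BRM) and SMARCA4 (BRG1) are the exclusive ATPases of the complex, SMARCC1 and SMARCC2 its scaffold, and SMARCB1 and SMARCE1 other core subunits. *Smarca2* was at 9.86, 9.95, 10.10 and 9.83 in YSM, 10.07, 10.10 and 10.22 at E10.5, 11.15, 11.33 and 11.10 at E12.5, and 11.66, 11.70 and 11.72 at E14.5. It went on to 12.04, 11.85 and 11.85 at E16.5, 12.04, 12.20 and 11.79 at E18.5, 12.11, 11.94 and 12.23 at P0, and 12.30, 12.47 and 12.47 in adults. YSM and E10.5 overlapped, every array at E12.5 and later lay above them, and adults lay above all other arrays. It rose by 1.06 ± 0.12 (adjusted p = 2.09e-06) at E12.5 and rose by 2.28 ± 0.12 (4.86-fold, adjusted p = 6.85e-13) over the whole span. All 3 probes rose over the span (2.05 to 2.43), but only 1 passed at E12.5, where the mean of the 3 gave 0.48 (adjusted p = 0.0891).

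*Smarca4* was at 9.31, 8.97, 9.02 and 8.99 in YSM, 8.81, 8.95 and 8.96 at E10.5, 8.61, 7.94 and 8.36 at E12.5, and 8.49, 8.29 and 7.82 at E14.5, and at 9.12, 8.94 and 8.98 at E16.5, 8.87, 8.92 and 8.74 at E18.5, 8.89, 8.60 and 8.86 at P0, and 8.04, 7.85 and 8.47 in adults. The arrays of E12.5, E14.5 and adults lay below all those of YSM, E10.5, E16.5 and E18.5, and 1 of the E12.5 arrays touched the P0 range. It rose by 0.82 ± 0.18 (adjusted p = 0.00241) at E16.5 and fell by 0.67 ± 0.18 (adjusted p = 0.00458) after birth. Its earlier fall at E12.5, -0.60 ± 0.18 (adjusted p = 0.0167), was lost without E10.5 replicate 2, or E12.5 replicate 2 (adjusted p from 0.0544 to 0.116). From E10.5 to adult *Smarca4* fell by 0.79 ± 0.18 (adjusted p = 0.000699).

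*Smarcc1* was at 7.70, 7.62 and 7.32 at E10.5, 7.16, 7.16 and 7.18 at E12.5, 6.80, 6.62 and 6.77 at P0, and 5.15, 6.15 and 5.57 in adults, and *Smarcc2* at 8.39, 8.29 and 8.61 at E10.5, 9.14, 9.09 and 8.85 at E12.5, 9.66, 9.67 and 9.83 at P0, and 9.10, 9.36 and 9.90 in adults. Adults were lowest for the first and above E10.5 for the second, where 1 of the 3 adult arrays exceeded the newborn level. Between E10.5 and adult *Smarcc1* fell by 1.92 ± 0.26 (3.79-fold, adjusted p = 1.89e-06), and *Smarcc2* rose by 1.03 ± 0.19 (2.04-fold, adjusted p = 7.81e-05). In adults *Smarcc1* was well above background on only 1 of 3 arrays, so the size of its fall is uncertain. *Smarcb1* fell by 0.95 ± 0.17 (adjusted p = 4.87e-05) and *Smarce1* fell by 0.60 ± 0.16 (adjusted p = 0.00252). *Smarcd3*, a subunit known from muscle and neural complexes, was not well above background on any array of YSM, E10.5, E12.5 or adult. Of 17 measured BAF partners 6 rose and 5 fell over the span, where 30.6% and 35.6% of all genes did. *Bicral*, of the non-canonical complex, rose by 2.09 ± 0.13 (adjusted p = 1.28e-11), whereas 2 subunits of the polybromo complex were lower, as *Brd7* fell by 1.12 ± 0.14 (adjusted p = 3.57e-07) and *Phf10* fell by 1.04 ± 0.17 (adjusted p = 1.47e-05).

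**Figure D5:**
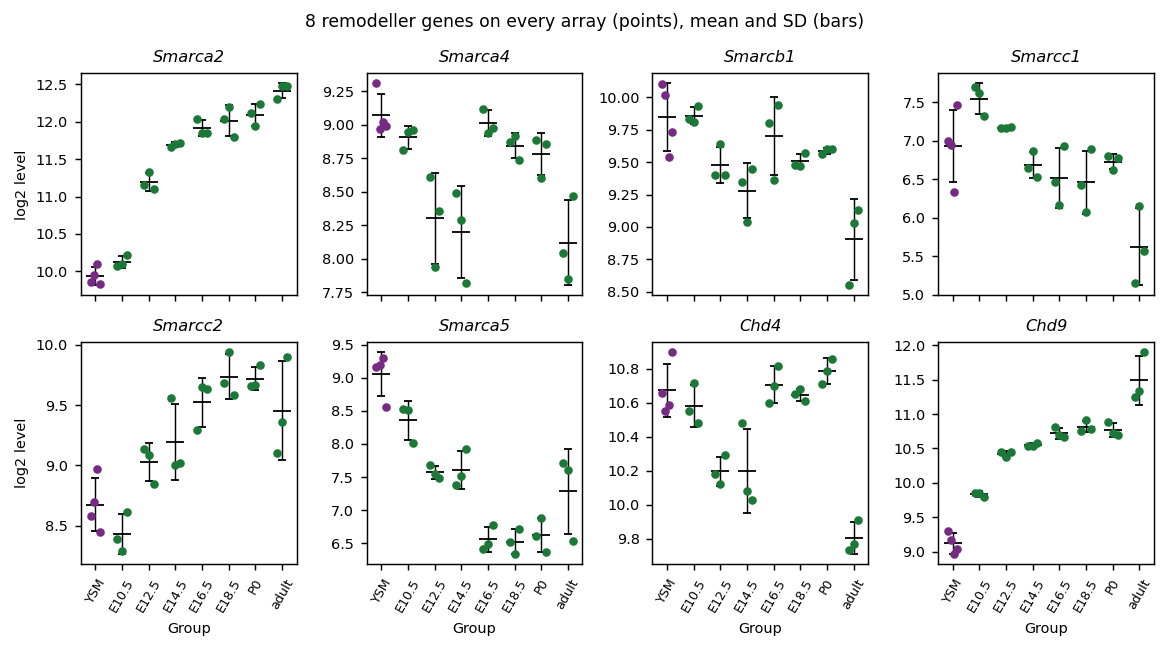
Level of 8 remodeller genes on every array (points; y axis, log2 intensity; x axis, group), with the group mean and SD (bars); purple marks YSM and green microglia. *Smarca2*, *Smarcc2* and *Chd9* were higher in adults than at E10.5, and *Smarca4*, *Smarcc1*, *Smarcb1*, *Smarca5* and *Chd4* were lower.

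The ISWI ATPase *Smarca5* (SNF2H), which spaces nucleosomes, was at 9.16, 9.20, 9.30 and 8.56 in YSM, 8.53, 8.52 and 8.02 at E10.5, 7.68, 7.54 and 7.49 at E12.5, and 7.38, 7.52 and 7.92 at E14.5. It was at 6.42, 6.49 and 6.77 at E16.5, 6.52, 6.34 and 6.71 at E18.5, 6.61, 6.88 and 6.37 at P0, and 7.71, 7.60 and 6.54 in adults. Levels dropped between E14.5 and E16.5 with no overlap, and 1 adult array stood apart from the other 2. It fell by 1.05 ± 0.25 (2.07-fold, adjusted p = 0.00421) at E16.5. Between E10.5 and adult it fell by 1.07 ± 0.25 (adjusted p = 0.000854), and without adult replicate 3 this was -0.70 (adjusted p = 0.00834). Its fall at E12.5, -0.79 ± 0.25 (adjusted p = 0.0231), was lost without E10.5 replicate 1 or 2, or E12.5 replicate 2 or 3 (adjusted p from 0.0598 to 0.0872). Its rise after birth, 0.66 ± 0.25 (adjusted p = 0.034), was lost without P0 replicate 1 or 3, or adult replicate 1 or 2 (adjusted p from 0.0714 to 0.181) and was 1.03 without adult replicate 3 and 0.36 (adjusted p = 0.0581) without background correction. The difference between YSM and E10.5, -0.70 ± 0.24 (adjusted p = 0.044), was lost without any 1 of 14 arrays (adjusted p from 0.0504 to 0.195). Its paralog *Smarca1* (SNF2L) was not well above background on any array at E10.5 or in adults, and the 4 YSM arrays ran from 5.50 to 8.73. Its fall at the first step was lost without E10.5 replicate 2 (adjusted p = 0.0547), its rise at E12.5 without E10.5 replicate 1, 2 or 3, or E12.5 replicate 2 (adjusted p from 0.0597 to 0.217) and its fall after birth without P0 replicate 1, 2 or 3, or adult replicate 1, 2 or 3 (adjusted p from 0.0662 to 0.0921).

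The chromodomain helicases split likewise. CHD4 is the ATPase of NuRD and CHD3 its paralog, CHD6, CHD8 and CHD9 form another subfamily, and CHD1L is a remodeller activated by poly(ADP-ribose). *Chd9* was at 9.31, 9.18, 8.97 and 9.04 in YSM, 9.86, 9.86 and 9.79 at E10.5, 10.45, 10.37 and 10.45 at E12.5, and 10.53, 10.53 and 10.58 at E14.5, and then at 10.81, 10.69 and 10.66 at E16.5, 10.75, 10.91 and 10.79 at E18.5, 10.89, 10.73 and 10.69 at P0, and 11.24, 11.33 and 11.90 in adults. YSM, E10.5, E12.5 and E14.5 followed each other without overlap, and adults were highest. It rose by 0.71 ± 0.12 (adjusted p = 0.000714) in the brain against YSM, rose by 0.59 ± 0.13 (adjusted p = 0.00227) at E12.5, rose by 0.72 ± 0.13 (adjusted p = 0.000147) after birth and rose by 1.65 ± 0.13 (3.15-fold, adjusted p = 8.12e-10) from E10.5 to adult, the last on 3 of its 4 probes. *Chd6* rose by 1.03 ± 0.14 (adjusted p = 1.5e-06) over that span.

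*Chd4* was at 10.55, 10.72 and 10.48 at E10.5, 10.48, 10.08 and 10.03 at E14.5, 10.60, 10.70 and 10.82 at E16.5, 10.71, 10.79 and 10.86 at P0, and 9.73, 9.77 and 9.91 in adults. Adult arrays lay below all embryonic and newborn arrays named here. It fell by 0.98 ± 0.12 (1.98-fold, adjusted p = 1.32e-06) after birth, when all 3 of its probes fell. Its rise at E16.5, 0.51 ± 0.12 (adjusted p = 0.00382), held for the probe used but was -0.02 (adjusted p = 0.956) when 3 probes were averaged, and under 75th percentile scaling 0.27 (adjusted p = 0.143). *Chd3* was at 5.99, 5.71 and 6.18 at E10.5, 6.70, 7.80 and 6.84 at E12.5, 7.83, 7.31 and 7.14 at E14.5, and 7.31, 7.57 and 7.91 in adults. It was not well above background at E10.5, so adults were at least 2.37-fold higher (adjusted p = 9.31e-05). *Chd1l* fell by 0.95 ± 0.24 (adjusted p = 0.00177) over the span on both probes. Its fall at E16.5, -0.74 ± 0.24 (adjusted p = 0.0249), was lost without E14.5 replicate 2 or 3, or E16.5 replicate 2 (adjusted p from 0.0911 to 0.128), and its second probe read 0.57 there. Among 19 measured partners of NuRD, Sin3, NCoR and CoREST complexes 5 rose and 8 fell over the span (30.6% and 35.6% of all genes). *Mta3* fell by 1.24 ± 0.12 (adjusted p = 2.12e-08), *Mbd3* fell by 0.95 ± 0.19 (adjusted p = 0.000206) and *Sap30*, of the Sin3 complex, fell by 1.12 ± 0.17 (adjusted p = 9.51e-06).

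Histone deacetylases changed in both directions: between E10.5 and adult 3 of 10 were called higher and 5 lower, where 30.6% and 35.6% of all genes were, and 1 of the 5 (*Hdac2*) has probes that disagree. HDAC11 is the only class IV enzyme. *Hdac11* was not well above background on any array from YSM to E14.5. It was at 6.02, 6.24 and 6.40 at E16.5, 6.53, 6.83 and 6.51 at E18.5, 6.35, 6.34 and 6.19 at P0, and 8.48, 8.67 and 8.71 in adults. Adult arrays were more than 1 log2 unit above every other array. It rose by 2.33 ± 0.30 (5.01-fold, adjusted p = 2.73e-06) after birth, and adults were at least 4.83-fold above E10.5 (adjusted p = 5.79e-09).

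*Hdac10*, of class IIb, was at 7.61, 7.79, 8.25 and 7.90 in YSM, 7.27, 7.33 and 7.48 at E10.5, 7.79, 7.82 and 8.08 at E12.5, and 8.32, 8.08 and 8.09 at E14.5. It was at 8.27, 8.38 and 8.51 at E16.5, 8.42, 8.61 and 8.24 at E18.5, 8.24, 8.30 and 7.86 at P0, and 8.88, 8.87 and 9.08 in adults. E10.5 arrays were the lowest and adult arrays the highest, both without overlap. It rose by 0.81 ± 0.15 (adjusted p = 0.000214) after birth and rose by 1.58 ± 0.15 (2.99-fold, adjusted p = 1.57e-08) over the span. *Hdac3*, the catalytic subunit of NCoR complexes, fell by 0.65 ± 0.10 (adjusted p = 1.01e-05) over the span. The class I gene *Hdac8* read -0.72 ± 0.29 (adjusted p = 0.0328), with 1 adult array at 5.20 and the others at 6.44 and 6.51, and its call was lost without E10.5 replicate 2 or 3, or adult replicate 1 (adjusted p from 0.0517 to 0.314), with -0.29 as the value nearest 0. The class IIa gene *Hdac7* was at 7.15, 7.19, 7.80 and 7.29 in YSM, 6.56, 6.60 and 6.88 at E10.5, 7.01, 6.78 and 5.08 at E12.5, and 6.52, 5.08 and 5.53 at E14.5, and at 6.51, 6.93 and 6.90 at E16.5, 7.15, 6.74 and 6.40 at E18.5, 6.08, 5.47 and 6.37 at P0, and 4.88, 5.34 and 5.47 in adults. YSM and adults stood at the ends, and E12.5 and E14.5 arrays were wide apart. It was not well above background on any adult array and was at least 1.45-fold lower in adults than at E10.5 (adjusted p = 0.00328). *Hdac5*, of the same class, rose by 0.67 ± 0.18 (adjusted p = 0.0021), which under 75th percentile scaling was 0.21 (adjusted p = 0.30). *Hdac9*, of class IIa, fell by 1.13 ± 0.25 (adjusted p = 0.00241) at E16.5, but its second probe read 0.49 there and the mean of both -0.32 (adjusted p = 0.208). For *Hdac2*, of class I, the probes disagreed: the brighter fell by 0.98 between E10.5 and adult (adjusted p = 5.31e-05), the other rose by 2.14, and their mean rose by 0.58 (adjusted p = 0.00771), so no direction is given for that gene.

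Among the NAD-dependent sirtuins 4 of 7 rose after birth and none fell, where 24.2% of all genes rose and 26.9% fell. SIRT7 is nucleolar and nuclear, whereas SIRT3 and SIRT4 are mitochondrial and come into the list by name. *Sirt7* was at 12.37, 12.46, 12.38 and 12.41 in YSM, 12.14, 12.22 and 12.41 at E10.5, 12.44, 12.44 and 12.43 at E12.5, and 12.64, 12.65 and 12.55 at E14.5, and at 12.65, 12.71 and 12.66 at E16.5, 12.68, 12.59 and 12.53 at E18.5, 12.37, 12.58 and 12.67 at P0, and 13.33, 13.51 and 13.33 in adults. Adult arrays lay above all others, which spanned less than a log2 unit. It rose by 0.85 ± 0.10 (1.8-fold, adjusted p = 3.88e-07) after birth. *Sirt4* was at 7.69, 7.81 and 7.77 at E10.5, 7.94, 7.76 and 8.07 at E14.5, 8.30, 8.02 and 7.97 at E18.5, 8.20, 7.79 and 8.0 at P0, and 8.91, 8.93 and 8.93 in adults, with the adult arrays close together and above the rest. It rose by 0.93 ± 0.17 (adjusted p = 0.000105) and *Sirt3* rose by 0.52 ± 0.15 (adjusted p = 0.00792). The rise of *Sirt1*, 0.58 ± 0.19 (adjusted p = 0.0169), was lost without P0 replicate 3, or adult replicate 1 or 2 (adjusted p from 0.0552 to 0.133) and was 0.89 without adult replicate 3.

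Of the histone demethylases 8 of 13 were higher and 2 lower in adults than at E10.5, against 30.6% and 35.6% of all genes. Under 75th percentile scaling 3 of the 8 were no longer called upward (*Kdm1b* at 0.12, *Kdm2a* at 0.11 and *Kdm7a* at -0.07). With the mean of kept probes 4 were not (*Kdm1b* at 0.09, *Kdm3b* at 0.39, *Kdm5b* at 0.22 and *Kdm7a* at 0.18). KDM3A removes methyl groups from lysine 9 of histone H3 and is a known hypoxia-induced gene, KDM4B acts on lysine 9 and 36, KDM1A (LSD1) on lysine 4, and KDM8 is a JmjC-domain enzyme. *Kdm3a* was at 9.31, 9.47, 9.24 and 9.18 in YSM, 9.55, 9.68 and 9.80 at E10.5, 10.54, 10.39 and 10.39 at E12.5, and 10.73, 10.63 and 10.67 at E14.5. It was at 11.51, 11.33 and 11.43 at E16.5, 11.27, 11.29 and 11.10 at E18.5, 11.17, 10.66 and 10.99 at P0, and 11.01, 11.10 and 11.42 in adults. Stages up to E16.5 followed each other upward with no overlap, and from E16.5 on the groups overlapped or were lower. It rose by 0.77 ± 0.13 (1.7-fold, adjusted p = 0.000189) at E12.5, where all 4 of its probes rose, and rose by 1.5 ± 0.13 (2.83-fold, adjusted p = 2.53e-09) over the span. At E16.5 it rose by 0.74 ± 0.13 (adjusted p = 0.000453), but 1 of 4 probes was called and their mean gave 0.31 (adjusted p = 0.11).

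*Kdm4b* rose by 0.84 ± 0.12 (adjusted p = 3.76e-06) over the span. *Kdm8* was at 9.38, 9.30, 9.54 and 9.98 in YSM, 9.32, 9.34 and 9.14 at E10.5, 8.78, 8.73 and 8.79 at E12.5, and 8.54, 8.69 and 8.52 at E14.5, and at 8.0, 8.0 and 7.84 at E16.5, 7.82, 7.72 and 8.08 at E18.5, 7.68, 8.02 and 8.21 at P0, and 8.10, 8.08 and 8.18 in adults. On the probe in use its arrays stepped down from E10.5 to E12.5, E14.5 and E16.5 without overlap and stayed within 1 range from E16.5 on. The fall at E12.5, -0.50 (adjusted p = 0.018), was lost without E10.5 replicate 1 or 2, or E12.5 replicate 2 (adjusted p from 0.0536 to 0.066). The fall at E16.5, -0.64, was -0.27 (adjusted p = 0.215) with the mean of its 2 probes. Both demethylases that fell over the span were *Kdm8*, which fell by 1.15 ± 0.15 (2.22-fold, adjusted p = 1.27e-06), and *Kdm1a*, which fell by 0.59 ± 0.12 (adjusted p = 0.00021). *Kdm4c*, an enzyme of lysine 9 like KDM4B, rose by 0.96 ± 0.19 (adjusted p = 0.00038) after birth. *Kdm3b* was not well above background at E10.5 on its probe in use, and adults were at least 1.56-fold higher (adjusted p = 0.000398), but a second probe read -0.41 and the mean of both 0.39 (adjusted p = 0.0536). For *Kdm5a* the direction depended on the probe, with changes from -0.74 to 1.52 over 3 probes between E10.5 and adult. *Kdm7a* read 0.49 ± 0.14 (adjusted p = 0.00392) over the span, and under 75th percentile scaling the sign turned (adjusted p = 0.728). The calls of *Kdm5b*, 0.64 ± 0.21 (adjusted p = 0.0115), and *Kdm2a*, 0.53 ± 0.18 (adjusted p = 0.0115), did not hold on every set of arrays: the first was lost without E10.5 replicate 3, or adult replicate 3 (adjusted p from 0.052 to 0.0803) or with the mean of its 3 probes (adjusted p = 0.442), and the second without adult replicate 3 (adjusted p = 0.109).

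Among lysine acetyltransferases *Kat6a* gave the one call of the last embryonic step. KAT6A (MOZ) acetylates histone H3 and is needed for blood stem cells, KAT2B (PCAF) is a coactivator, and KAT8 (MOF) acetylates lysine 16 of histone H4. *Kat6a* was at 7.05, 6.28, 6.90 and 6.75 in YSM, 6.30, 6.17 and 5.39 at E10.5, 6.60, 6.74 and 6.96 at E12.5, and 7.17, 7.24 and 7.34 at E14.5, and at 6.88, 6.42 and 6.10 at E16.5, 8.56, 8.70 and 8.66 at E18.5, 7.30, 8.44 and 7.21 at P0, and 7.84, 6.92 and 7.87 in adults. The 3 E18.5 arrays were close together and above every other array, and 1 of 3 P0 arrays approached them. It rose by 2.17 ± 0.31 (4.5-fold, adjusted p = 0.00132) at E18.5. *Kat2b* was at 6.27, 6.18, 5.82 and 6.15 in YSM, 7.44, 7.44 and 6.35 at E10.5, 7.71, 7.41 and 7.88 at E12.5, and 7.31, 7.45 and 7.63 at E14.5, and at 8.16, 7.57 and 8.14 at E16.5, 8.22, 8.18 and 8.41 at E18.5, 8.15, 8.25 and 8.06 at P0, and 7.75, 7.91 and 8.02 in adults. YSM arrays were the lowest, and E10.5 replicate 3 stood more than a log2 unit below the other 2 of its stage. It rose by 0.98 ± 0.21 (adjusted p = 0.00331) in the brain against YSM on both probes, and over the span rose by 0.81 ± 0.23 (adjusted p = 0.00349), which was 0.45 (adjusted p = 0.0367) without E10.5 replicate 3. *Kat8* rose by 0.94 ± 0.11 (adjusted p = 7.42e-07) after birth. Of 23 measured acetyltransferases and acetyl readers outside the rule 6 rose and 6 fell over the span (30.6% and 35.6% of all genes). Among them *Hat1*, the enzyme that acetylates new histone H4, fell by 2.66 ± 0.12 (adjusted p = 1.58e-13), and *Msl1*, a partner of KAT8, rose by 1.26 ± 0.17 (adjusted p = 1.87e-06).

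*Hmgb2*, which bends DNA and is abundant in dividing cells, was the one high mobility group B gene measured. It averaged 10.67 ± 0.15 (SD, n = 3) at E10.5 and was at 9.57, 9.72, 8.33 and 8.31 in YSM, 10.21, 10.47 and 10.04 at E12.5, and 9.73, 9.86 and 9.76 at E14.5. Later it was at 9.74, 8.95 and 9.26 at E16.5, 9.71, 9.33 and 9.62 at E18.5, 9.47, 9.05 and 9.55 at P0, and 8.05, 8.13 and 7.43 in adults. YSM split into 2 higher and 2 lower arrays, all below E10.5, and adults lay below every microglial array of earlier stages. It rose by 1.69 ± 0.29 (3.23-fold, adjusted p = 0.000627) in the brain against YSM and fell by 1.48 ± 0.31 (2.79-fold, adjusted p = 0.000516) after birth. Over the span it fell by 2.80 ± 0.31 (adjusted p = 9.69e-08), beside the fall of all 14 proliferation genes, whose part in it was not tested. Of 22 measured histone chaperones and other remodellers 1 rose and 13 fell over the span, where 30.6% and 35.6% of all genes did. Their median was -0.93, against -0.09 for all genes. *Chaf1b*, of the chaperone that deposits histones behind the replication fork, fell by 4.93 ± 0.16 (adjusted p = 9.42e-16), and *Nasp*, a chaperone of histones H3 and H4, fell by 3.55 ± 0.27 (adjusted p = 2.96e-10). Of 10 measured linker, variant and HMG genes outside the rule 1 rose and 7 fell (median -1.6), against the same shares of all genes. *H2ax* fell by 3.59 ± 0.16 (adjusted p = 1.45e-13) and *Hmgn5*, a nucleosome-binding protein, fell by 3.56 ± 0.22 (adjusted p = 9.75e-12), while the histone variant gene *H3f3b* rose by 0.94 ± 0.16 (adjusted p = 2.84e-05).

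Other programmes moved with these changes, and their part in them was not tested. All 14 measured of 18 proliferation genes fell between E10.5 and adult (median -4.57), with the log2 of their summed intensities at 15.70 to 15.85 at E10.5, 14.36 to 14.55 at P0 and 11.21 to 11.54 in adults. Of these, 8 fell at E12.5, 5 fell at E16.5 and 12 fell after birth. Those of 7 neutrophil and early myeloid genes were 14.67 to 15.08 in YSM and 13.60 to 14.98 at E10.5, and all 7 were below background on every array at E16.5 and in adults. Those of 7 endoderm and epithelial genes spanned 9.06 to 15.07 in YSM, with 6 of 7 lower in E10.5 microglia.

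In adults the neuronal genes *Dcx*, *Stmn2*, *Tbr1* and *Gap43* were below background on every array, and 6 of the 7 neuronal genes fell after birth, from summed levels of 11.81 to 12.66 at P0. Astrocyte and oligodendrocyte genes (6 of 9 measured) summed to 11.76 to 12.19 at P0 and 13.16 to 13.46 in adults, where *Gfap*, *Aqp4*, *Aldh1l1* and *Olig1* were below background on every array. Erythroid genes (7 of 9) summed to 11.89 to 16.46 in YSM and 15.99 to 16.04 in adults, and progenitor genes (3 of 4) to 10.15 to 10.61 and 10.11 to 10.62. These sums hide single genes. The erythroid genes *Hbb-bh1*, *Hbb-y*, *Hba-x* and *Klf1* and the progenitor gene *Kit* were below background on every adult array. Between E10.5 and adult 2 of the 7 erythroid genes rose and 4 fell, and of the 3 progenitor genes 1 rose and 2 fell. Border macrophage genes (7 of 7 measured) summed to 15.72 to 17.06 at P0 and 9.92 to 10.03 in adults, and all 7 fell. Heat-shock genes (7 of 7) summed to 15.57 to 15.69 at E16.5 and 15.70 to 16.39 in adults, against 14.69 to 14.99 at P0, and all 7 rose after birth. Immediate early genes (11 of 12) summed to 17.49 to 17.75 at E16.5, against 15.66 to 16.95 at E14.5.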

How the data were processed

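Cells were measured on Illumina Mouse WG-6 v2 bead arrays. The authors deposited, per array and probe, an intensity and a detection p-value as exported from GenomeStudio, and a second table of intensities, quantile-normalized by the authors with lumi and left on a linear scale. Versions of either tool were not given in the sources. Log2 values were computed here from the intensities the authors deposited. That normalized table served as an alternative, and no column of the authors' own comparisons was used. Of the 28 columns 3 adult ones repeated others exactly and were counted once, which left 25 arrays. No per-sample column was without a group.

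Intensities were background-corrected with limma's neqc (R 4.3.3, limma 3.58.1, offset 16; background inferred from the detection p-value), quantile-normalized and put on the log2 scale. A probe was kept when its detection p-value was under 0.01 on at least 3 arrays, and the kept probe with the highest mean stood for a gene. Of 39 members with several kept probes, 4 (*Cbx3*, *Hdac2*, *Kdm5a*, *Setd2*) had probes called in opposite directions in a comparison. Probe names came from the platform annotation, where 34885 of 45281 probes have 1 symbol, 18 several and 10378 none; 34807 matched the gene table by identifier. 

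One linear model of 8 group means (17 residual degrees of freedom, limma's empirical Bayes) gave a moderated F test and 8 contrasts, with p-values adjusted by Benjamini-Hochberg over 10630 genes. Replicate numbers follow the order of columns within a group and name arrays only. The headers of the 4 YSM arrays each carry a different date of unstated meaning, and the sources used here do not say whether the other pools came from separate days. The number of arrays limits the precision. A probe at detection p of 0.01 or more on every array of a group gave only a bound. Any member could be named; values on every array were to be given for up to 3 members of each family with the widest span of group means, up to 6 rises and 6 falls were named in each comparison, and up to 4 called genes of each partner list. Array values of *Setd6*, *Smarca4*, *Smarcc1*, *Smarcc2* and *Chd4*, and the genes *Kmt2a* and *Kmt2c*, were added after their values were seen. The members and lists were chosen with earlier results of these data known. The model was tested on simulated data. Alternatives covered the scaling, the background correction, the filter, the probe rule, the variance model, the Tukey test of the study's methods, the replicate block and leaving out each array. Promoter windows were RefSeq's (GRCm38.p6).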

Additional observations from a re-analysis of the deposited data

Results flagged for a closer look

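In the group of 4 YSM arrays, 82 genes were checked for an array far from the other 3 by Dixon's ratio, which chance passes in about 1 of 20 groups, and 4 genes passed. *Chd2*, a CHD remodeller, was at 9.13 on replicate 2 and 9.56 to 9.63 on the others. *Setd2*, the methyltransferase of lysine 36 of histone H3, was at 11.71 on replicate 4 and 11.45 to 11.49 on the others. *Setd3*, an actin histidine methyltransferase, was at 9.72 on replicate 4 and 10.58 to 10.63 on the others. *Smarca4* was at 9.31 on replicate 1 and 8.97 to 9.02 on the others. The other groups held 3 arrays each and were not checked.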

How the results depend on the processing

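Of 173 called changes of single members, 63 lost their call without 1 array and 0 turned direction. The counts called without 1 array ran from 10 to 23 for YSM to E10.5, 14 to 24 for E12.5, 0 to 2 for E14.5, 18 to 30 for E16.5, 1 to 3 for E18.5, 0 to 0 for P0, 26 to 44 for adult against P0, 55 to 60 for adult against E10.5, and 73 to 76 for the F test. Counts moved by over 1.5 times at E14.5 (1 with 75th percentile scaling, 1 with the mean of kept probes, 0 with both groups fitted alone), at E18.5 (3 with the mean of kept probes, 4 with 6 adult columns, 2 with Tukey's test), from YSM to E10.5 (13 with Tukey's test, 5 with both groups fitted alone), at E12.5 (13 with Tukey's test) and at P0 (2 with Tukey's test). *Kdm7a* turned to -0.07 between E10.5 and adult under 75th percentile scaling. With the mean of kept probes *Kdm5a* turned to -0.10 at E12.5 (adjusted p = 0.772), *Chd4* to -0.02 and *Setd2* to 0.79 at E16.5, and *Hdac2* to 0.58 between E10.5 and adult. Mean of kept probes averages probes that disagree; otherwise the cause was not tested. Of the 173, calls lost with the direction kept numbered 26 with 75th percentile scaling and 27 with the mean of kept probes. They numbered 38 with both groups fitted alone, 49 with Tukey's test, and 1 to 8 under the remaining settings other than the replicate block. The changes named above that turned direction are not among these counts.

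Deviations of arrays with the same number in the sample labels correlated from -0.63 to 0.38. With 2 or 3 pairs in a comparison this cannot show whether samples were paired, which the sources used here do not state. With the number as a replicate block, run on the authors' table with identical adult columns counted once, the counts were 77 (F test), 17, 25, 3, 32, 1 and 0 for the steps up to P0, 46 after birth and 61 over the span. Genes near background, such as *Hdac11* before E16.5, have only a bound.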
